A study of Mus musculus with 6 samples.

Results

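Iron handling in alveolar macrophages, the resident phagocytes of the airspaces, was followed through 10 genes for iron uptake, storage, export and their regulation: Tfrc, Steap3, Slc11a1, Slc11a2, Fth1, Ftl1, Ncoa4, Slc40a1, Aco1 and Ireb2. They were picked by gene symbol from the 46078 genes counted, each matched 1 row, and all 10 were among the 15147 genes with enough counts to test. Polyadenylated RNA of sorted lung alveolar macrophages had been sequenced from untreated mice, 1 library for each of 3 Car4fl/fl-CD11cCre mice and 3 Car4fl/fl mice. In both groups the Car4 alleles were flanked by loxP sites. Car4 encodes carbonic anhydrase 4, an enzyme held at the cell surface. The Car4fl/fl-CD11cCre mice (Cre libraries) also carried a Cre recombinase under CD11c, the integrin made from Itgax, and the Car4fl/fl mice (floxed controls) did not. CD11c is shared with dendritic cells, so Cre is not restricted to macrophages. No group carried Cre without floxed Car4, and an effect of the transgene cannot be told apart from loss of Car4. Strain, age and sex were not used here.

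Cells take up transferrin-bound iron through the transferrin receptor, reduce it in the endosome and pass it to the cytosol through a divalent metal transporter. Surplus iron is stored inside ferritin, a shell of heavy and light chains, from which it is released when the receptor NCOA4 carries ferritin to the lysosome, and it leaves the cell through ferroportin. Macrophages of the spleen and liver are known for recycling iron from red cells, and alveolar macrophages for holding iron that reaches the airspace in ferritin. Iron regulatory proteins 1 and 2 (Aco1 and Ireb2) sense cytosolic iron and bind a hairpin, the iron-responsive element, in several of these mRNAs. At low iron, binding near the start of the ferritin and ferroportin mRNAs blocks their translation, and binding behind the coding sequence of the transferrin receptor mRNA protects it from decay.

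The hairpins that tie these transcripts together are shown because 4 of the 10 genes share them. The search looked, on the transcript strand, for an unpaired C, 5 bases, a loop of CAGTGN or CAGAGN with N other than G, and 5 bases that pair with the first 5 (G with T allowed). It found 8 elements with all 5 pairs in 4 of the members, in GENCODE M21 transcripts of GRCm38. Of 21951 protein-coding genes 493 (2.25%) held such an element in any part of any transcript, coding sequence included. It lay in a 5′ UTR for 53 (0.241%) and in a 3′ UTR for 221 (1.01%). For the members only elements outside the coding sequence were kept. The pattern is that of the known element, so finding it in mRNAs known to carry it is no test. Capitals mark the loop, and each line gives 30 bases 5′ to 3′.
Fth1 5′ UTR: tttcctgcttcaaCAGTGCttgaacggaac
Ftl1 5′ UTR: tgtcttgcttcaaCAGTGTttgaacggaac
Slc40a1 5′ UTR: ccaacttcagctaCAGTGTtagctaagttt
Tfrc 3′ UTR element 1: tatttatcagtgaCAGAGTtcactataaat
Tfrc 3′ UTR element 2: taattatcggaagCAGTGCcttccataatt
Tfrc 3′ UTR element 3: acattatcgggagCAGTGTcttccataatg
Tfrc 3′ UTR element 4: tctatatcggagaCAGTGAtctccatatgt
Tfrc 3′ UTR element 5: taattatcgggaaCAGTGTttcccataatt
Slc11a2 3′ UTR: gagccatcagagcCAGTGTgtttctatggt

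The ferritin elements lie at chr19:9982731-9982760 (Fth1, plus strand) and chr7:45459779-45459808 (Ftl1, minus strand), and the ferroportin element at chr1:45925465-45925494 (Slc40a1, minus strand). The 5 Tfrc elements lie in its 3′ UTR on the plus strand of chromosome 16, the first at chr16:32631159-32631188 and the last at chr16:32631709-32631738. The Slc11a2 hairpin, at chr15:100395153-100395182 on the minus strand, paired at 4 of 5 positions. That looser rule was met by 15.9% of protein-coding genes, coding sequence included. Counts per gene do not separate Slc11a2 transcripts with this hairpin from those without it, and mRNA levels do not show how much of a transcript is translated.

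The libraries held 53824475 to 65443314 counts in genes, and the smallest count of any member in a library was 185 (Slc11a1). Car4 was at 40.2, 46.9 and 36.3 CPM in the Cre libraries, against 499, 385 and 270.4 CPM in the floxed controls, and fell past the threshold (log2 fold change -3.23, SE 0.22, adjusted p 0.0047 by edgeR). That call was lost without control library 2 (adjusted p 0.0549 by edgeR) and with robust dispersions (adjusted p 0.0719 by edgeR). CPM are counts relative to a library's total, scaled by TMM, a method that aligns libraries on the bulk of their genes. Adjusted p-values follow Benjamini and Hochberg over all tested genes. All 10 markers of alveolar macrophages, Car4 itself among them, passed the filter on low counts, with 4 log2 fold changes above zero and 6 below (median -0.06). Chil3, the most abundant, was at 18927 to 32961 CPM in Cre libraries and 14423 to 17834 CPM in controls, and Siglecf at 464 to 592 CPM in Cre libraries and 663 to 752 CPM in controls. Without overlap, Chil3, Marco and Itgax were higher in the Cre libraries and Siglecf and Car4 lower. Of all tested genes 8.63% were higher and 9.22% lower without overlap. Of these 5 markers only Car4 passed edgeR (Siglecf adjusted p 0.197 by edgeR, 0.0127 by DESeq2). DESeq2 called 3 of the 10 markers higher and 2 lower, beside 2.32% and 1.46% of its tested genes. Cre library 1 stood apart from the other Cre libraries on principal component 1 (45.8% of the variance), at 1.84 against 42.6 and 41.9 for Cre libraries 2 and 3, with the controls between -32.5 and -24.5. Markers of interstitial macrophages (8 of 8 detected, none at 0) summed to 11.6, 41.3 and 77.3 CPM in Cre libraries 1, 2 and 3, against 6.58 to 9.06 CPM in controls. Among these markers C1qa, C1qb and C1qc were above every control in every Cre library, and Cd163 was below. Dendritic cell markers, of cells that the same Cre can reach, summed to 6.52 to 9.64 CPM in Cre libraries and 7.32 to 9.34 CPM in controls. Of the 6 dendritic cell markers, 4 had a log2 fold change above zero and 2 below, and DESeq2 called 1, lower. Only Clec9a did not overlap, with lower means of 2.87 CPM in Cre libraries and 5.06 CPM in controls (adjusted p 0.200 by edgeR). Neutrophil markers summed to 61.4, 51.5 and 57.8 CPM in Cre libraries 1, 2 and 3, against 45.1, 50.4 and 49.1 CPM in controls, without overlap. All 4 of these that were tested had a log2 fold change above zero (median 0.55), while Ly6g was at 0 in all 6 libraries. Most of the neutrophil sum came from Csf3r, with means of 48.9 CPM in Cre libraries and 42.5 CPM in controls. The groups overlapped for Csf3r, S100a8 and S100a9, and did not for Retnlg, at means of 0.278 and 0.153 CPM. Cre library 1 had the highest sum of alveolar type 2 cell markers, at 169.7 CPM against 101.5 and 117 CPM in Cre libraries 2 and 3 and 112 to 127 CPM in controls. It also had the highest sum of endothelial markers, at 21.3 CPM against 10.7 and 12.4 CPM in the other Cre libraries and 12.1 to 13.98 CPM in controls. Erythroid markers summed to 2.80 to 7.88 CPM in Cre libraries and 2.27 to 15.3 CPM in controls. In sorted bulk RNA, fewer cells of a type and less RNA per cell cannot be told apart.

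Storage dominated the iron-handling transcripts of these macrophages, and the regulators were intermediate. Levels of different genes are compared in TPM, counts per kilobase of exon scaled to the same total in every library. Ftl1, the light chain that helps iron settle in the core, stood at 6113 ± 858 TPM in Cre libraries and 6023 ± 332 TPM in controls (SD, n = 3 each). Fth1, the heavy chain that oxidises iron on entry, stood at 5329 ± 295 TPM in Cre libraries and 5127 ± 61.6 TPM in controls. By mean TPM over the 6 libraries these ranked 12 and 15 among all genes. Their order is not settled, since their values overlapped and turned round when the longest transcript was taken as the length, with means over the 6 libraries of 6597 TPM for Ftl1 and 6907 TPM for Fth1.

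Behind ferritin came Aco1 at 122 ± 5.66 TPM in Cre libraries and 119.7 ± 8.19 TPM in controls, and Ncoa4 at 72.6 ± 4.66 TPM in Cre libraries and 85.8 ± 4.28 TPM in controls (SD, n = 3 each). The order of Aco1 and Ncoa4 also turned round with the longest transcript. Ireb2 followed at 25.7 ± 0.951 TPM in Cre libraries and 25.9 ± 1.33 TPM in controls, above Tfrc in every library. Tfrc stood at 19.4 ± 3.17 TPM in Cre libraries and 13.8 ± 1.96 TPM in controls. The lowest transcripts were the membrane carriers and the reductase. Slc11a2 was at 9.03 to 13.3 TPM over the 6 libraries, Slc11a1 at 2.91 to 16.4 TPM, Steap3 at 6.05 to 11.1 TPM and Slc40a1 at 2.25 to 7.90 TPM. Neighbours in this order overlapped in range, Tfrc with Slc11a2 included, whereas Slc40a1 lay below Slc11a2 and Tfrc in every library. With the longest transcript as the length, the mean of Slc40a1 over the 6 libraries rose from 3.75 to 6.75 TPM. The means of Steap3, Slc11a2 and Tfrc were then 6.83, 11.8 and 16.5 TPM.

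**Figure D1:**
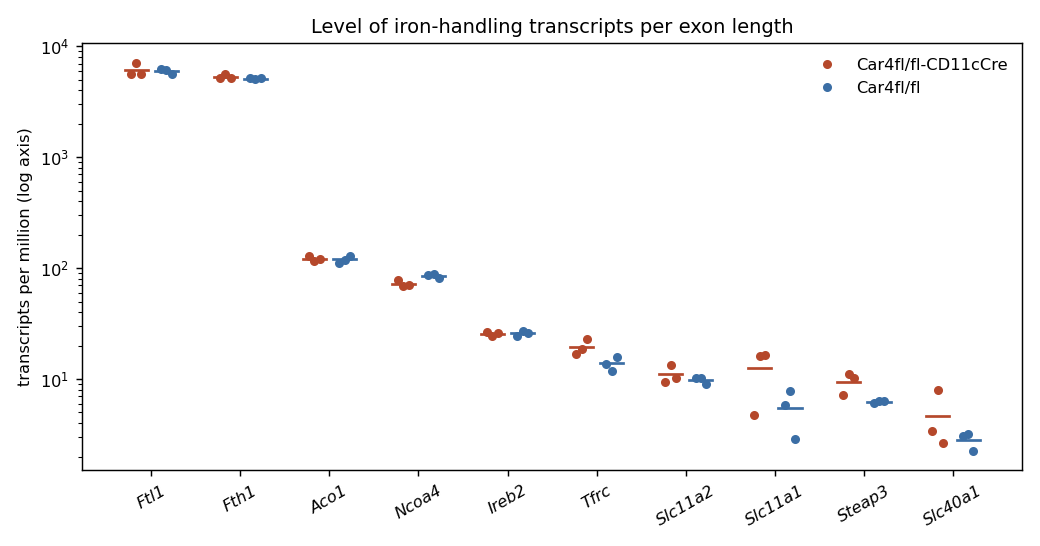
Level of each iron-handling transcript in TPM on a log axis, one point per library and a line at the mean of 3 libraries, with Car4fl/fl-CD11cCre left of Car4fl/fl. The 2 ferritin chains stand above all other members in every library, Fth1 at 5064 TPM or more, and Slc40a1 is at the low end at 2.25 to 7.90 TPM.

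Between the genotypes none of the 10 transcripts passed edgeR's quasi-likelihood test at an adjusted p of 0.05, a threshold passed by 0.0132% of the tested genes (2 of 15147). Every Cre library exceeded every control for Tfrc and Steap3 and was below every control for Ncoa4. Such separation of the groups was seen for 3 of the 10 members, 2 higher and 1 lower, and for 17.9% of all tested genes, 8.63% higher and 9.22% lower. Of the 10 members 4 had an unadjusted p under 0.05, beside 12.8% of all tested genes. Of these Steap3, Tfrc and Slc11a1 were on the higher side, where 6.54% of all genes lay, and Ncoa4 on the lower, where 6.28% lay. DESeq2 called 2 of 10 members, Steap3 and Tfrc, both higher, and 3.78% of its tested genes, 2.32% higher and 1.46% lower. The median log2 fold change of the 10 was 0.14, against -0.002 for all tested genes, with 9 of the 10 above zero. Intervals given below are 95% intervals of a single gene, not widened for the number of genes tested. Gene positions are those of GENCODE M21 on GRCm38.

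Tfrc (ENSMUSG00000022797, chr16:32608920-32632794, plus strand) encodes transferrin receptor 1, the entry point of transferrin-bound iron. It measured 31.7, 36.8 and 44.2 CPM in Cre libraries 1, 2 and 3, against 27.1, 22.0 and 29.5 CPM in the floxed controls. The groups did not overlap, with Cre library 3 highest and Cre library 1 closest to the controls. The difference was 1.43-fold, or 0.52 ± 0.14 (SE) on the log2 scale, with an interval of 0.19 to 0.85 (adjusted p 0.196 by edgeR). DESeq2 (adjusted p 0.0117) and unfiltered edgeR (adjusted p 0.0279) called it higher, and the adjusted p ran from 0.0117 to 0.479 over 17 alternatives. Without any 1 library its log2 fold change stayed between 0.39 and 0.62. Tfrc is known to be high in dividing cells, and the summed proliferation markers, all 6 detected, stood at 345, 325 and 361 CPM in the Cre libraries and at 269.9, 322 and 346 CPM in the controls. Their part in the result was not tested.

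Steap3 (ENSMUSG00000026389, chr1:120190757-120272705, minus strand) encodes the ferrireductase that turns endosomal ferric iron into the ferrous form for transport, the step after the receptor. It had the smallest p of the members, and rank 389 among all tested genes. Its values were 12.5, 20.3 and 18.1 CPM in the Cre libraries, against 11.0, 10.8 and 10.9 CPM in the controls. The controls were nearly equal, with a coefficient of variation of 0.772%, whereas the Cre libraries varied by 23.8% and library 1 stood just above the controls. The difference was 1.55-fold, or 0.64 ± 0.16 (SE) on the log2 scale, with an interval of 0.26 to 1.01 (adjusted p 0.185 by edgeR). DESeq2 called it higher (adjusted p 0.00704). EdgeR called it, with Tfrc, when run unfiltered (adjusted p 0.0279), where 1.23% of genes were called higher. Without Cre library 1 edgeR called it, as 1 of 10 members (log2 fold change 0.81, adjusted p 0.00697), where 1.59% of genes were called higher, and the range over 17 alternatives was 0.00697 to 0.471. Among the Cre libraries, library 1 also had the lowest sum of interstitial macrophage markers and the highest sums of alveolar type 2 and endothelial markers listed above, and their part in the result was not tested.

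By likeness of pattern, measured as the Pearson correlation of log2 CPM over the 6 libraries among 11618 genes with at least 1 CPM on average, the 5 genes closest to Steap3 were Mmp9, Ablim1, Serpina3g, Vps37b and Thrb (r of 0.992 to 0.998). In all, 172 of these genes exceeded 0.95. Mmp9, which encodes a matrix-degrading gelatinase, was at 0.896, 3.18 and 2.49 CPM in the Cre libraries against 0.664, 0.715 and 0.669 CPM in the controls. Mmp9 was picked for its correlation with Steap3, so its low value in library 1 of the Cre group follows from that choice.

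Slc11a1 (ENSMUSG00000026177, chr1:74375195-74386062, plus strand) encodes NRAMP1, which pumps divalent metal out of the phagosome of macrophages. It measured 5.39, 19.3 and 19.0 CPM in the Cre libraries, against 6.86, 8.76 and 3.26 CPM in the controls. Cre libraries 2 and 3 were above every control and Cre library 1 was within their range, so the groups overlapped. Its estimated difference was the largest of the 10, at 1.21 ± 0.50 (SE) on the log2 scale, with a wide interval of 0.04 to 2.37 (adjusted p 0.377 by edgeR). Without Cre library 1 it was 1.60 with an adjusted p of 0.0732 by edgeR, against 0.0732 to 0.653 over 17 alternatives. The summed interstitial macrophage markers were likewise high in Cre libraries 2 and 3, at 41.3 and 77.3 CPM, and low in Cre library 1, at 11.6 CPM, against at most 9.06 CPM in the controls. The alveolar type 2 and endothelial sums were highest in Cre library 1. The part of these markers in the result was not tested.

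Slc11a2 (ENSMUSG00000023030, chr15:100387898-100425072, minus strand) encodes DMT1, the related carrier that moves ferrous iron from the endosome to the cytosol. It was at 18.4, 27.0 and 20.3 CPM in the Cre libraries, against 20.6, 19.5 and 17.3 CPM in the controls. Only Cre library 2 lay outside the control range. Its log2 fold change of 0.20 ± 0.14 (SE) had an interval of -0.13 to 0.52 (adjusted p 0.637 by edgeR). It rested on Cre library 2, without which it was 0.02.

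**Figure D2:**
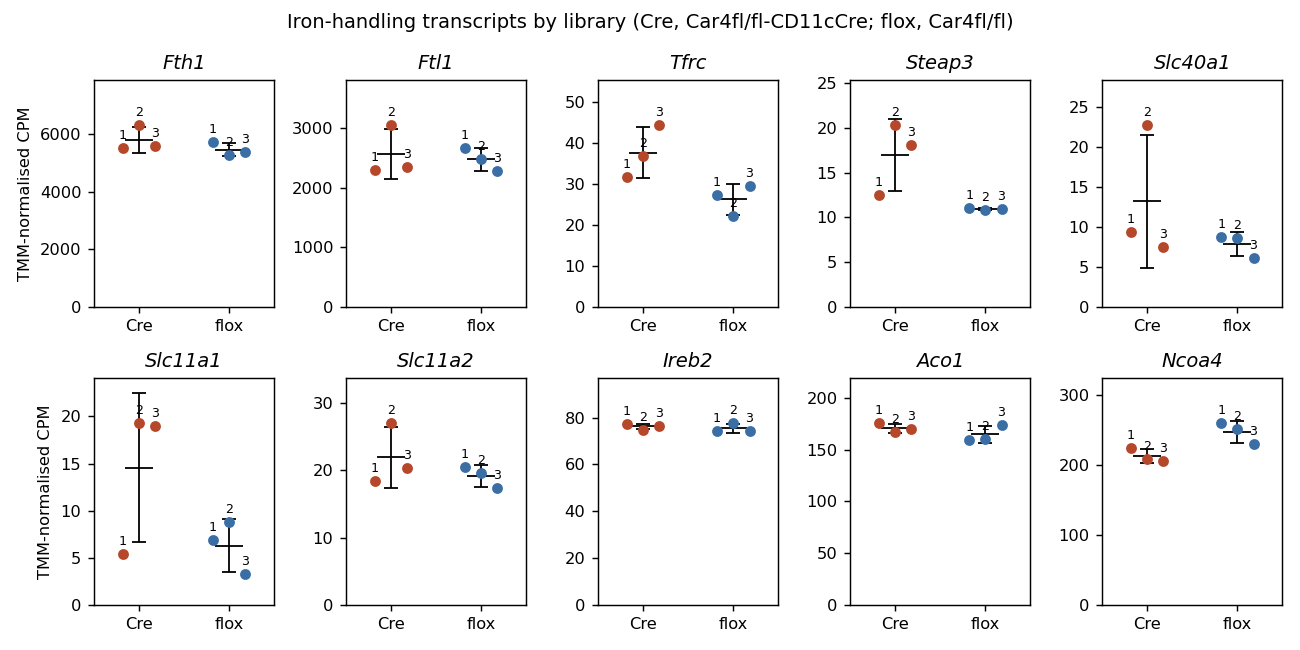
TMM-normalised CPM of the 10 iron-handling genes in each library, numbered by replicate, with the mean and SD of 3 libraries per group and axes that start at 0. Tfrc and Steap3 in the Cre libraries lie above, and Ncoa4 below, all 3 floxed controls, Slc40a1 stands out in Cre library 2 at 22.7 CPM, and Slc11a1 in Cre libraries 2 and 3 at 19.3 and 19.0 CPM.

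The ferritin chains did not differ detectably. Fth1 (ENSMUSG00000024661, chr19:9980598-9985098, plus strand) measured 5498, 6296 and 5572 CPM in the Cre libraries, against 5722, 5273 and 5372 CPM in the controls. Ftl1 (ENSMUSG00000050708, chr7:45457944-45459884, minus strand) measured 2304, 3047 and 2352 CPM in the Cre libraries, against 2671, 2474 and 2284 CPM in the controls. For both chains Cre library 2 was highest and the groups overlapped. The log2 fold change of Fth1 was 0.09 ± 0.08 (SE) with an interval of -0.10 to 0.27 (adjusted p 0.737 by edgeR), which corresponds to 0.933-fold to 1.21-fold. That of Ftl1 was 0.05 ± 0.12 (SE) with an interval of -0.22 to 0.33 (adjusted p 0.909 by edgeR), or 0.856-fold to 1.26-fold, and its sign turned negative without Cre library 2 or without control library 3.

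Taken as a share of all counts, the 2 ferritin chains made up 0.783, 0.921 and 0.793% in the Cre libraries and 0.827, 0.786 and 0.771% in the controls. The difference of 0.0378 percentage points had an exact permutation p of 0.6, where 0.1 is the smallest that 3 libraries against 3 can give (two-sided). The balance of heavy to light chain was likewise close, at 2.39, 2.07 and 2.37 Fth1 counts per Ftl1 count in the Cre libraries, against 2.14, 2.13 and 2.35 in the controls (exact permutation p 0.8, two-sided). Cre library 2 had the lowest ratio of the 6. Tfrc relative to Fth1, the receptor message set against the storage message, was 5.77, 5.84 and 7.93 Tfrc counts per 1000 Fth1 counts in the Cre libraries, against 4.74, 4.18 and 5.49 in the controls. All Cre values were above all control values, with a difference of 0.43 on the log2 scale and an exact permutation p of 0.1 (two-sided), the smallest possible. The log2 fold changes of Tfrc and Fth1 alone were 0.52 and 0.09, so this ratio largely repeats the Tfrc difference. The 3 ratio tests were not adjusted, since this design cannot reach 0.05.

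Ncoa4 (ENSMUSG00000056234, chr14:32159865-32179855, plus strand) encodes the receptor that delivers ferritin to lysosomes for iron release. It was the only member with a lower estimate in the Cre libraries, at 224, 209 and 205 CPM, against 259, 251 and 229 CPM in the controls. The groups did not overlap, though Cre library 1 and control library 3 lay close together. This was 0.862-fold, or -0.21 ± 0.07 (SE) on the log2 scale, with an interval of -0.37 to -0.06 (adjusted p 0.240 by edgeR). DESeq2 gave an adjusted p of 0.0788, the lowest over 17 alternatives (0.0788 to 0.520), and the estimate was negative in all 17. The changed thresholds and robust dispersions among these keep the main estimate, so its sign could not change there.

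Slc40a1 (ENSMUSG00000025993, chr1:45908068-45926523, minus strand) encodes ferroportin, the iron exporter, and its mean difference rested on 1 library. The Cre libraries were at 9.43, 22.7 and 7.45 CPM, against 8.80, 8.65 and 6.11 CPM in the controls. Cre library 2 was far above all others, while Cre library 3 lay within the control range. On the log2 scale the difference of 0.75 ± 0.39 (SE) had an interval of -0.15 to 1.66 (adjusted p 0.484 by edgeR), and it was 0.10 without Cre library 2. The coefficient of variation was 63.0% in the Cre libraries and 19.3% in the controls.

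The iron sensors had the narrowest intervals of the 10 members and the lowest variation among the Cre libraries. Aco1 (ENSMUSG00000028405, chr4:40143081-40198338, plus strand), which encodes iron regulatory protein 1, an aconitase when it holds an iron-sulfur cluster, was at 176, 167 and 170.1 CPM in the Cre libraries, against 159.8, 161 and 174 CPM in the controls. Ireb2 (ENSMUSG00000032293, chr9:54863789-54912530, plus strand), which encodes iron regulatory protein 2, was at 77.1, 74.8 and 76.6 CPM in the Cre libraries, against 74.1, 77.5 and 74.4 CPM in the controls. The groups overlapped for both genes. Their intervals were narrow, at -0.07 to 0.18 for the log2 fold change of Aco1 (adjusted p 0.767 by edgeR) and -0.09 to 0.12 for that of Ireb2 (adjusted p 0.929 by edgeR), so that an Ireb2 level more than 1.09-fold higher lay outside its interval. The coefficients of variation of Ireb2 were 1.55% in Cre libraries and 2.52% in controls.

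**Figure D3:**
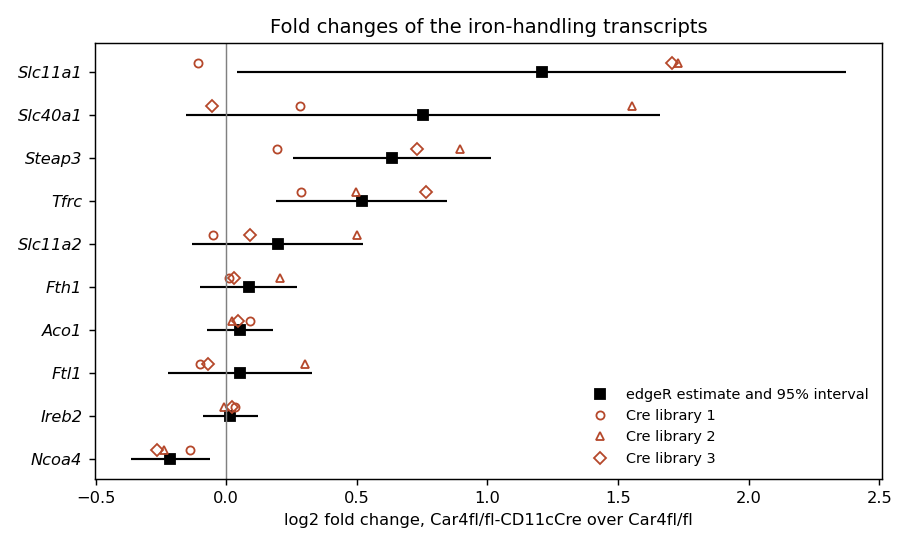
Log2 fold change of each iron-handling transcript, Car4fl/fl-CD11cCre over Car4fl/fl, from edgeR (square) with its 95% interval for a single gene, and each Cre library over the control mean of log2 CPM (open symbols). The intervals of Fth1, Ftl1, Aco1, Ireb2, Slc11a2 and Slc40a1 include zero, and Cre library 1 lies apart from libraries 2 and 3 for Slc11a1 and Steap3.

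Beyond these members, 110 other genes of iron, heme, iron-sulfur cluster and lipid peroxide biology were listed, of which 100 were tested. None passed edgeR over all genes, while an unadjusted p under 0.05 was met by 8 on the higher side and 9 on the lower, a threshold met by 12.8% of all tested genes. DESeq2 called 1 higher (Fbxl5) and 3 lower (Slc22a17, Slc3a2 and Cd163), 4 of 100, beside 3.78% of the genes it tested. The 100 are those tested by edgeR, and DESeq2 gave at least Cybrd1 among them no adjusted p. Their median log2 fold change was 0.002, against -0.002 for all tested genes, with 51 above and 49 below zero.

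Of other uptake genes 10 were tested, with 2 of them, both lower, at an unadjusted p under 0.05, beside 6.28% of all tested genes. The median log2 fold change of the list was -0.08. Slc22a17, a receptor for the siderophore-binding lipocalin 2, was at 16.8, 15.8 and 22.5 CPM in the Cre libraries, against 34.2, 31.6 and 28.2 CPM in the controls. Every Cre value was below every control value, by -0.77 ± 0.14 (SE) on the log2 scale, and although edgeR gave an adjusted p of 0.146, DESeq2 called it (adjusted p 2.17e-05), and so did unfiltered edgeR (adjusted p 0.00273). Trf, which encodes transferrin, was at 47.0 ± 0.782 CPM in Cre libraries and 53.6 ± 4.59 CPM in controls (SD, n = 3 each; adjusted p 0.311 by edgeR). The most abundant of the list was Lrp1, a receptor for many ligands including heme bound to hemopexin, at 2877 ± 248 CPM in Cre libraries and 3033 ± 434 CPM in controls.

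Storage chaperones and export genes numbered 9 tested, 3 on the higher side at an unadjusted p under 0.05 and 0 on the lower. Of all tested genes 6.54% were on the higher side and 6.28% on the lower. The median log2 fold change of the list was 0.05. Fbxl5, the iron-sensing ubiquitin ligase subunit that marks iron regulatory protein 2 for degradation, was at 191, 218 and 187 CPM in the Cre libraries, against 167, 163 and 160.1 CPM in the controls. These values did not overlap, and on the log2 scale they differed by 0.28 ± 0.07 (SE), with adjusted p of 0.170 by edgeR and 0.00778 by DESeq2. Cp, which encodes the ferroxidase ceruloplasmin, was at 1.09 ± 0.229 CPM in Cre libraries and 0.603 ± 0.184 CPM in controls (adjusted p 0.291 by edgeR). Pcbp1, an iron chaperone for ferritin, was the most abundant, at 305 ± 5.19 CPM in Cre libraries and 317 ± 10.3 CPM in controls. The mitochondrial ferritin gene Ftmt had no counts in any library.

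Heme genes were spread around zero. Of 13 tested genes of heme uptake, breakdown and export 2 had an unadjusted p under 0.05 on the higher side and 1 on the lower (median log2 fold change 0.01). The shares of all tested genes were 6.54% higher and 6.28% lower. Mfsd7b, also known as Flvcr1, the heme exporter gene, was at 24.6, 28.8 and 30.6 CPM in the Cre libraries, against 22.4, 22.8 and 23.3 CPM in the controls, without overlap. Its adjusted p by edgeR was 0.213, and 0.0480 without Cre library 1, where 1.59% of genes were called higher. Cd163, the hemoglobin-haptoglobin receptor gene, was low, at 0.423, 0.201 and 0.297 CPM in the Cre libraries, against 0.714, 1.30 and 0.651 CPM in the controls (adjusted p 0.185 by edgeR, 0.0489 by DESeq2). Spic, a transcription factor gene of iron-recycling macrophages named here after its values were seen, did not reach the filter on low counts, with 0.135, 0.790 and 0.371 CPM in the Cre libraries against 0.0498, 0.0831 and 0.0528 CPM in the controls. EdgeR without the filter called it (adjusted p 0.0314), where 1.23% of all genes were called higher. Without Cre library 1 it passed the filter only through Cre libraries 2 and 3, at 51 and 20 counts against at most 5 in controls. That selection favours a difference, so the edgeR call there (adjusted p 0.0328) is no support for one. The 11 tested heme synthesis genes had no member at an unadjusted p under 0.05. Those of smallest p were Cpox at 31.1 ± 0.960 CPM in Cre libraries and 28.5 ± 2.13 CPM in controls, and Ppox at 30.5 ± 0.763 CPM in Cre libraries and 33.2 ± 2.60 CPM in controls, and the most abundant was Alas1 at 356 ± 23.8 CPM in Cre libraries and 353 ± 27.5 CPM in controls.

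Iron-sulfur cluster and mitochondrial iron genes numbered 27 tested, of which an unadjusted p under 0.05 was met by 1 on the higher side and 2 on the lower (median log2 fold change -0.02). That level was met by 6.54% of all tested genes on the higher side and 6.28% on the lower. Cisd1, an outer mitochondrial membrane iron-sulfur protein, was at 30.8 ± 1.58 CPM in Cre libraries and 26.3 ± 1.94 CPM in controls, and Nubp1, a scaffold of cytosolic clusters, at 23.2 ± 1.21 CPM in Cre libraries and 28.9 ± 4.35 CPM in controls (adjusted p 0.264 and 0.286 by edgeR). The abundant chaperone gene Hspa9 was at 258 ± 9.16 CPM in Cre libraries and 242 ± 7.66 CPM in controls. Of the hepcidin pathway 13 were tested, 0 on the higher and 1 on the lower side at that level, namely Id1 at 34.9 ± 5.05 CPM in Cre libraries and 44.8 ± 6.89 CPM in controls (adjusted p 0.321 by edgeR). Smad7 was at 9.41 ± 1.99 CPM in Cre libraries and 11.7 ± 0.767 CPM in controls, and Stat3 at 288 ± 14.6 CPM in Cre libraries and 293 ± 9.39 CPM in controls.

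Of 6 other mRNAs known for an iron-responsive element 2 were on the higher side at an unadjusted p under 0.05, beside 6.54% of all tested genes. Epas1, which encodes the hypoxia-inducible factor 2 alpha, was at 61.8, 137 and 62.7 CPM in the Cre libraries, against 51.0, 44.6 and 40.4 CPM in the controls. It was highest in Cre library 2, and its groups did not overlap (log2 fold change 0.94 ± 0.30 SE, adjusted p 0.258 by edgeR and 0.0362 without a filter on low counts). Without that filter 1.23% of genes were called higher. Cdc42bpa was at 27.8 ± 0.415 CPM in Cre libraries and 24.4 ± 1.92 CPM in controls. Ferroptosis and lipid peroxide defence had 12 tested members, 0 on the higher and 3 on the lower side at that level, where 6.28% of all tested genes were lower. Slc3a2, the heavy chain of the cystine exchanger, was at 303, 309.8 and 309 CPM in the Cre libraries, against 347, 357 and 353 CPM in the controls. Without overlap and with little spread, it differed by -0.20 ± 0.05 (SE) on the log2 scale, with adjusted p of 0.173 by edgeR and 0.00483 by DESeq2. Gch1, which encodes the first enzyme of tetrahydrobiopterin synthesis, was at 29.9 ± 1.15 CPM in Cre libraries and 34.6 ± 2.07 CPM in controls (adjusted p 0.231 by edgeR).

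**Figure D4:**
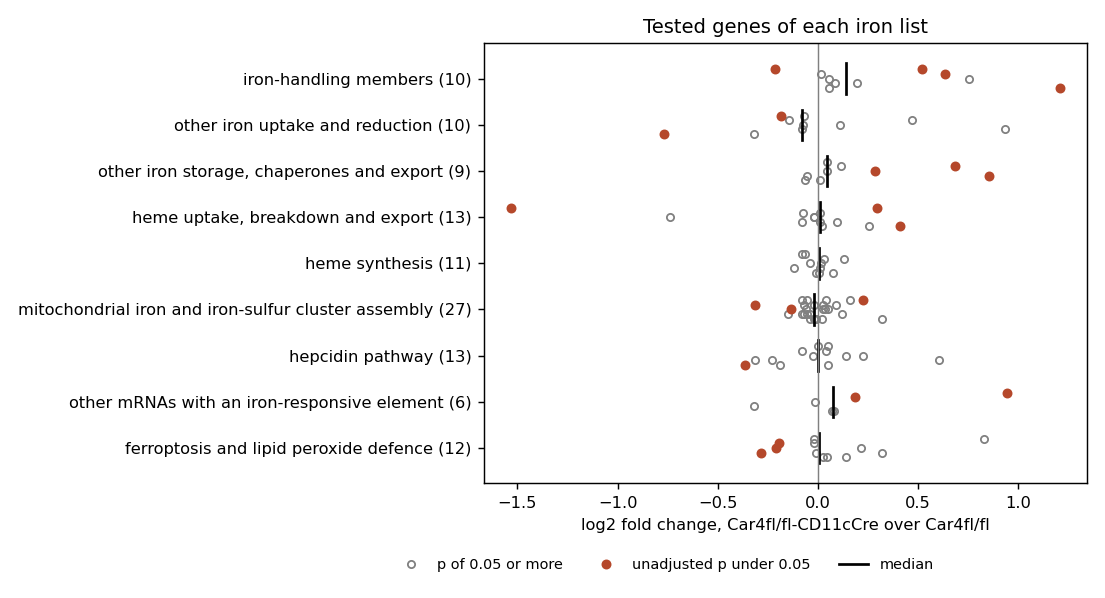
Log2 fold change, Car4fl/fl-CD11cCre over Car4fl/fl, of every tested gene of the 10 members (top) and of 8 other iron lists, with the number tested in brackets, the median as a bar and genes at an unadjusted edgeR p under 0.05 filled. Medians of the other lists lie between -0.08 and 0.08, and none of the genes shown passed the adjusted threshold.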

How the data were processed

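The authors deposited whole-number counts for each gene, with no scaling. Among the tools listed in the submitters' processing notes are cutadapt 2.5, STAR 2.6.1, featureCounts 1.6.4, edgeR 3.26.5 and DESeq2 1.22.1, along with GRCm38, with nothing said of what each did. Which annotation release was counted, and whether strand was used, was not stated in the sources read here. Libraries were assigned to groups through the library names in the labels. Of 46078 identifiers 45143 were found in GENCODE M21, which gave coordinates, exon lengths and transcript sequences. Ftl1 and Slc11a2 share exonic bases with other annotated genes, and reads there cannot be assigned without strand. Ferritin reads may also be exchanged with processed copies, which held at most 0.154% (Fth1) and 0.55% (Ftl1) of the parent's counts.

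The main test was edgeR 4.0.16 under R 4.3.3, with filterByExpr (minimum count 10), TMM and the quasi-likelihood F test of the group term without covariates, two-sided. P-values were adjusted by the Benjamini-Hochberg method over 15147 genes, and the threshold was 0.05. Standard errors were taken from the F statistic (the size of the log2 difference over the root of F), and intervals use the fit's t distribution. Alternatives were DESeq2 1.42.0, limma-voom 3.58.1, other scalings, filters and thresholds, a block for the replicate number, the omission of each library in turn and, chosen after seeing the data, robust dispersions. Ferritin copies were found with blastn 2.17.0, and figures were drawn with matplotlib 3.10.9. EdgeR and DESeq2 were also run on simulated counts with known fold changes, drawn independently for each gene and library. The simulation held no shift of a whole library, so it does not show how the tests handle one. Within each group every pair of libraries differed by more than sampling noise (chi-square per degree of freedom 21.7 to 57.5). Separate litters are not stated, and p-values measure the spread between these libraries. PCR duplicates are not independent molecules.

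The members, the gene lists and the naming rule were chosen with earlier results of these data known. Named are all members and, of each other iron list, the 2 of smallest p and the most abundant, except where a gene is not reported here. Mmp9 and the other genes like Steap3 are the 5 of highest correlation. A few listed symbols were matched through RefSeq synonyms.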

Additional observations from a re-analysis of the deposited data

How the results depend on the processing

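The count of genes past the threshold was 2 by edgeR (1 higher, 1 lower), 561 with DESeq2 (344 higher, 217 lower), 523 without a filter on low counts (340 higher, 183 lower), 10 with the replicate number as a block and 1 with robust dispersions, and lay between 1 and 286 when 1 library was left out: 286 without Cre library 1, 67 without control library 3, 9 without Cre library 2 and 1 without control library 2. Of the 10 iron-handling genes 0 were called by edgeR, 2 with DESeq2 and 2 without the filter, and 0 to 1 with a library left out (Steap3 without Cre library 1). Of the other iron genes 0 were called by edgeR, 4 with DESeq2, 3 without the filter and 0 to 2 with a library left out. The 2 without Cre library 1 were Mfsd7b and Spic, and Spic passed the filter there only through Cre libraries 2 and 3. The counts over all genes are out of 14841 tested with DESeq2, 27536 without the filter and 15641 without Cre library 1. The cause of the differences between settings was not tested. The log2 fold change of Car4 was -3.43 to -2.99 with a library left out, past the threshold except without control library 2, and with robust dispersions it was -3.23 with an adjusted p of 0.0719 (edgeR).

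The log2 estimate for Ftl1 lay between -0.0900 and 0.118 with a library left out. It was negative without Cre library 2 and, at -0.0076, without control library 3, and the ferritin share of counts, which differed by -0.00666 to 0.0624 percentage points with a library left out, changed sign without Cre library 2 only. The other 9 members kept their sign under all 17 alternatives. Of these the changed thresholds and robust dispersions keep the main estimate, so the sign could not change there. Adding the ferritin copies moved no ratio across zero. With any scaling the median of all genes stayed within 0.01 of zero on the log2 scale.

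Replicate numbers are shared between the groups, but deviations of same-numbered libraries correlated at -0.00988, -0.146 and 0.0718, so the numbers were not taken as pairs. The correlation was higher with another number for some libraries. With the block 10 genes were called, against 2 without it, and no member's call changed. Every member had at least 185 counts in each library, and 3 libraries a group limit the precision of each interval.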

Other observations

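Processed copies of the ferritin light chain gene with rows of their own in the table, 13 in number and at least 81.2% alike to Ftl1, summed to 750, 128 and 93 counts in Cre libraries 1, 2 and 3, against 96, 114 and 93 counts in the floxed controls. Cre library 1 thus held more counts on these copies than any other library, at 0.55% of its Ftl1 count. The 2 copies of Fth1 in the table summed to 436, 556 and 394 counts in the Cre libraries, against 159, 488 and 169 counts in the controls, and these groups overlapped.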
